A study of Mus musculus with 16 samples.

Results

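Interleukin-1 (IL-1) family ligands and receptors are described here from 10 genes, Il1a, Il1b, Il1rn, Il1r1, Il1r2, Il1rap, Il18, Il18bp, Il33 and Il1rl1. They were chosen by name, with earlier results of these data known, and all 10 were among the 55487 gene identifiers of the deposited table. The gene and marker lists used below were written with those results known too. Counts of members or list genes beside the share of all tested genes are therefore descriptions. Of these members, 8 passed a filter on low values (1 CPM or more in 3 or more of the 16 samples), which left 18859 genes for testing. Il1a and Il1rl1 did not pass it. CPM, a count scaled to sequencing depth, is the number of reads on a gene for each 1000000 reads on all genes of that sample.

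IL-1 alpha and IL-1 beta are inflammatory cytokines that bind the receptor IL-1R1, which then recruits the accessory chain IL-1RAP and signals through MyD88 and IRAK kinases to NF-kB. The system carries its own brakes: the receptor antagonist encoded by Il1rn occupies IL-1R1 without signalling, and the decoy receptor IL-1R2 binds IL-1 but lacks the signalling domain. IL-18 and IL-33 are relatives of IL-1 with receptors of their own, and in the brain the family is known for fever, sickness behaviour and the response of blood vessels and glia to inflammation.

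Total RNA, depleted of ribosomal RNA with KAPA RiboErase, was sequenced from the cortex of wild-type (WT) C57Bl6 male mice aged 2 months. LPS, the bacterial lipopolysaccharide, was injected into the peritoneum at 2 mg/kg on 2 consecutive days, and control mice received the saline PBS. Injections fell at ZT1 or ZT13, the hours since lights on, so that ZT1 is early in the light and ZT13 early in the dark, and cortex was collected 24 h after the last injection. The groups were 3 ZT1 PBS mice, 5 ZT1 LPS mice, 3 ZT13 PBS mice and 5 ZT13 LPS mice, all separate animals, and each sample held between 20251840 and 29112758 reads on genes.

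The tissue label was checked against markers. Neuronal markers summed to between 3980 and 4660 CPM in the 16 samples, with Syt1 the most abundant over all samples but close to Slc17a7 and Snap25, and oligodendrocyte markers summed to between 2260 and 3020 CPM, with Mbp the most abundant. Choroid plexus markers ranged from 11.5 to 960 CPM between samples, with Ttr the most abundant.

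The treatment field of the labels contradicted the sample titles in 12 of the 16 samples, and the groups here follow the titles. Gfap, the astrocyte filament gene that rises in reactive astrocytes, served as a check. In the ZT1 comparison Gfap was at 123, 113 and 111 CPM in the PBS mice and at 945, 572, 671, 802 and 665 CPM in the LPS mice. In the ZT13 comparison Gfap was at 120, 113 and 120 CPM in the PBS mice and at 977, 1090, 1130, 1080 and 791 CPM in the LPS mice. Every mouse titled LPS was above every mouse titled PBS, and grouping by the treatment field mixes these high and low values.

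How much of each member the cortex held was compared per length, as CPM per kb of exon. In ZT1 PBS mice the order was Il33 at 4.94 ± 0.442 CPM per kb (SD, n = 3), Il18 at 4.9 ± 0.613, Il18bp at 3.82 ± 0.382, Il1rap at 2.84 ± 0.152 and Il1r1 at 0.481 ± 0.105. Il33 and Il18 did not differ beyond their spread. Il1b, Il1r2 and Il1a followed at 0.13, 0.12 and 0.112 CPM per kb and overlapped each other, then Il1rl1 at 0.0214, while Il1rn had no reads. In ZT13 PBS mice the leading 5 genes kept that order, from Il33 at 5.9 ± 0.526 CPM per kb (SD, n = 3) to Il1r1 at 0.515 ± 0.0285, each apart from the next beyond its spread. PBS mice held the RNA of IL-33, IL-18, the IL-18 binding protein and the accessory chain at higher levels per kb than that of the IL-1 ligands, antagonist and decoy. The order among the leading genes depended on the division by exon length, the union of all annotated exons. In CPM, Il1rap led in ZT1 PBS mice at 32.3, ahead of Il33 at 14.3, Il18bp at 11.6 and Il18 at 5.05.

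After LPS the order was different. In ZT13 LPS mice Il1r2 reached 3.77 ± 1.7 CPM per kb (SD, n = 5), a level that overlapped Il18bp at 4.41 ± 0.421 and Il1rap at 3.23 ± 0.236. Il1r1 at 1.11, Il1b at 1.03 and Il1rn at 0.413 CPM per kb came next, then Il1a at 0.217 and Il1rl1 at 0.0171. In ZT1 LPS mice the order began with Il18, Il18bp, Il33 and Il1rap, which lay between 4.65 and 3.23 CPM per kb and neighbours overlapped, while Il1r1 at 1.0, Il1r2 at 0.906, Il1b at 0.717, Il1a at 0.373 and Il1rn at 0.16 formed a lower run in which neighbours also overlapped.

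**Figure D1:**
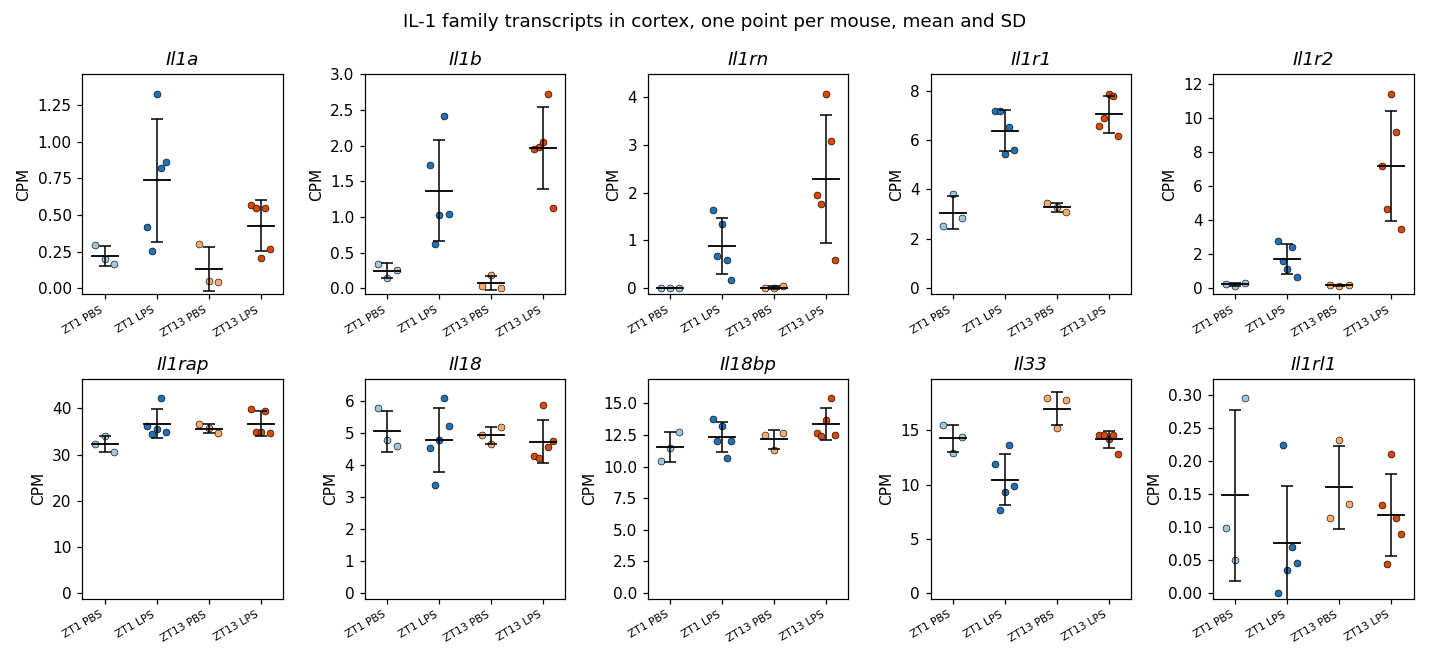
Level of each IL-1 family member in CPM (vertical axes, linear) in the 4 groups, with each point 1 mouse, the line the mean and the bar 1 SD, cut off at the lower edge of a panel where it passes below 0. Il1r2 lies between 0.139 and 0.295 CPM in the PBS mice, between 0.68 and 2.8 in the ZT1 LPS mice and between 3.49 and 11.4 in the ZT13 LPS mice, and Il18 overlaps in all 4 groups.

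The comparison of LPS with PBS within each time asks how the cortex responded to LPS given early in the light or early in the dark. Cortex was collected 24 h after the last injection, at the same time of day, so times of injection and collection cannot be told apart. At ZT1, 4 of the 8 tested members rose and 0 fell by limma at adjusted p under 0.05, beside 11.1% of all tested genes that rose and 5.15% that fell. At ZT13, 4 rose and 1 fell, beside 19.2% of all tested genes that rose and 9.4% that fell. This background depended on scaling, as 67.2% of its calls at ZT13 were higher after LPS but 45% with quantile normalization, and at ZT1 68.2% but 51.1%. The risers at both times were Il1b, Il1rn, Il1r1 and Il1r2, and the gene that fell at ZT13 was Il33. Median log2 change of the 8 was 0.57 at ZT1 and 0.56 at ZT13, against 0.04 and 0.05 for all tested genes. Without ZT1 PBS mouse 1, 2 or 3 the background at ZT1 was 1767, 1870 or 1770 called genes in place of 3061, and without ZT1 PBS mouse 2 just 2 members were called. Il1b, Il1rn and Il1r2 passed the filter through LPS mice alone, so their presence among the tested genes already depended on a difference. Fitted changes use log2(CPM + 0.5), which understates genes as low as these.

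Il1b encodes the IL-1 beta precursor, which inflammasome caspases cleave to the active cytokine. At ZT1, Il1b was at 0.345, 0.148 and 0.253 CPM in PBS mice and at 1.73, 0.627, 1.03, 2.42 and 1.04 CPM in LPS mice. At ZT13, Il1b was at 0.038, 0.185 and 0 CPM in PBS mice and at 1.95, 1.98, 2.05, 2.73 and 1.12 CPM in LPS mice. All LPS mice were above all PBS mice of their time, and mouse 2 was the lowest of the ZT1 LPS mice. The mean went from 0.249 ± 0.0986 to 1.37 ± 0.706 CPM at ZT1 (SD, n = 3 and 5), a ratio of 5.5, with a two-sided exact permutation p of 0.054, where 0.018 is the smallest this design gives. At ZT13 the mean went from 0.0743 ± 0.0977 to 1.97 ± 0.571 CPM (SD, n = 3 and 5), a ratio of 26.4 that rests on 0 to 4 reads in each PBS mouse, with an exact permutation p of 0.018. The fitted Il1b change was 1.25 (SE 0.28, adjusted p 0.011) at ZT1 and 2.08 (SE 0.22, adjusted p 6.3e-06) at ZT13. Without ZT1 PBS mouse 2 the ZT1 change of Il1b was 1.15 with adjusted p 0.053, and it was not called without the filter either (adjusted p 0.084, range over alternatives 0.0019 to 0.084).

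Il1a encodes IL-1 alpha, which is active without cleavage and is released from damaged cells. At ZT1, Il1a was at 0.296, 0.198 and 0.168 CPM in PBS mice and at 0.42, 0.256, 1.33, 0.821 and 0.861 CPM in LPS mice. At ZT13, Il1a was at 0.304, 0.0463 and 0.0448 CPM in PBS mice and at 0.57, 0.546, 0.21, 0.545 and 0.269 CPM in LPS mice. The groups overlapped at both times, since ZT1 LPS mouse 2 and ZT13 LPS mice 3 and 5 lay below the highest PBS mouse. Means were 0.221 ± 0.0668 against 0.737 ± 0.42 CPM at ZT1 and 0.132 ± 0.149 against 0.428 ± 0.174 CPM at ZT13 (SD, n = 3 and 5), with an exact permutation p of 0.071 at each time. In a fit of all 38565 genes without the filter, Il1a had a log2 difference of 0.72 (adjusted p 0.26) at ZT1 and 0.56 (adjusted p 0.15) at ZT13. Its exons share 222 bases with Gm14023 on the other strand, its read counts were fractional in 6 samples, and the files do not say whether counting used the strand.

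Il1rn, the gene of the receptor antagonist, was nearly silent without LPS. At ZT1, Il1rn was at 0, 0 and 0 CPM in PBS mice and at 1.63, 0.671, 1.34, 0.595 and 0.181 CPM in LPS mice. At ZT13, Il1rn was at 0, 0 and 0.0448 CPM in PBS mice and at 1.95, 1.76, 4.07, 3.07 and 0.582 CPM in LPS mice. Its reads appeared in every LPS mouse and in a single PBS mouse, which had 1 read, and mouse 5 was the lowest of the LPS mice at each time. The LPS mean of 0.884 ± 0.59 CPM at ZT1 (SD, n = 5) was at least 6.28-fold higher than a floor of 3 reads in each PBS library. At ZT13 the ratio of pooled CPM was 164 with an exact 95% counting interval from 29.2 to 6490, which covers counting error only. The exact permutation p was 0.054 at each time, and the fitted Il1rn change was 1.36 (SE 0.33, adjusted p 0.016) at ZT1 and 2.28 (SE 0.35, adjusted p 0.00022) at ZT13. The ZT1 call of Il1rn was lost without PBS mouse 1, 2 or 3 (adjusted p 0.06, 0.056 and 0.06), without the filter (0.1) and with quantile normalization (0.052), over a range of 0.0021 to 0.1 for the alternatives.

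For these low genes the size of the fitted change depended on the pseudocount. With 0.1 in place of 0.5 the ZT1 changes were 1.98 for Il1b, 3.04 for Il1rn and 2.34 for Il1r2, and with 1 they were 0.88, 0.86 and 1.09, while at ZT13 they were 3.66 for Il1b and 4.16 for Il1rn with 0.1.

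Il1r1 encodes the signalling receptor, known in brain from endothelium and some neurons. At ZT1, Il1r1 was at 2.51, 3.8 and 2.86 CPM in PBS mice and at 7.18, 7.16, 5.43, 6.51 and 5.62 CPM in LPS mice. At ZT13, Il1r1 was at 3.45, 3.28 and 3.09 CPM in PBS mice and at 6.55, 6.88, 7.88, 7.77 and 6.18 CPM in LPS mice. Every LPS mouse was above every PBS mouse, and the LPS mice of the 2 times overlapped. The mean rose from 3.06 ± 0.666 to 6.38 ± 0.831 CPM at ZT1 (SD, n = 3 and 5) and from 3.28 ± 0.182 to 7.05 ± 0.749 CPM at ZT13 (SD, n = 3 and 5), ratios of 2.09 and 2.15. The fitted Il1r1 change was 0.96 (95% interval 0.65 to 1.27, adjusted p 0.001) at ZT1 and 1.00 (0.76 to 1.23, adjusted p 9.2e-06) at ZT13, and the exact permutation p was 0.018 at each time.

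Il1r2 encodes the decoy receptor. At ZT1, Il1r2 was at 0.247, 0.148 and 0.295 CPM in PBS mice and at 2.8, 1.61, 1.13, 2.42 and 0.68 CPM in LPS mice. At ZT13, Il1r2 was at 0.19, 0.139 and 0.179 CPM in PBS mice and at 7.17, 4.68, 11.4, 9.21 and 3.49 CPM in LPS mice. No LPS mouse overlapped a PBS mouse, and the lowest ZT13 LPS mouse was above the highest ZT1 LPS mouse. The mean rose from 0.23 ± 0.0747 to 1.73 ± 0.878 CPM at ZT1 (SD, n = 3 and 5), a ratio of 7.52, and from 0.169 ± 0.0269 to 7.2 ± 3.25 CPM at ZT13 (SD, n = 3 and 5), a ratio of 42.5. PBS mice held 3 to 7 reads of it, which limits how well both ratios are known. The fitted Il1r2 change was 1.52 (SE 0.30, adjusted p 0.0058, exact permutation p 0.054) at ZT1 and 3.41 (SE 0.28, adjusted p 7.9e-07, exact permutation p 0.036) at ZT13. At ZT1 the call of Il1r2 was lost without the filter, with adjusted p 0.065 in a range of 0.00089 to 0.065 over alternatives.

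Decoy and signalling receptor were also set side by side in each mouse, as the ratio of Il1r2 to Il1r1 in CPM per kb, a measure chosen after the values were seen. At ZT1 the Il1r2 to Il1r1 ratio was 0.327, 0.13 and 0.343 in PBS mice and 1.3, 0.75, 0.697, 1.24 and 0.403 in LPS mice. At ZT13 it was 0.183, 0.141 and 0.193 in PBS mice and 3.65, 2.27, 4.84, 3.95 and 1.88 in LPS mice. Per kb, decoy RNA exceeded signalling receptor RNA in 5 of 5 ZT13 LPS mice, in 2 of 5 ZT1 LPS mice and in 0 PBS mice. These counts depended on the division by exon length. In CPM, Il1r2 was below Il1r1 in ZT13 LPS mice 2 (4.68 against 6.88) and 5 (3.49 against 6.18). In ZT1 LPS mice Il1r2 was at most 2.8 CPM, whereas Il1r1 was at least 5.43 CPM. The antagonist did not pass its ligand in the same way: Il1rn per kb was below Il1b in all 5 LPS mice at each time, with Il1rn to Il1b ratios from 0.0599 to 0.448 at ZT1 and from 0.179 to 0.682 at ZT13. This order also depended on exon length. In CPM, Il1rn was above Il1b in ZT1 LPS mice 2 (0.671 against 0.627) and 3 (1.34 against 1.03). The same held in ZT13 LPS mice 3 (4.07 against 2.05) and 4 (3.07 against 2.73), but not in the other LPS mice.

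Il1rap encodes the accessory chain shared by the receptors for IL-1 and IL-33. At ZT1, Il1rap was at 32.3, 34 and 30.6 CPM in PBS mice and at 36.2, 34.6, 35.6, 42.2 and 35 CPM in LPS mice. At ZT13, Il1rap was at 36.6, 35.7 and 34.6 CPM in PBS mice and at 40, 34.8, 35, 39.4 and 34.6 CPM in LPS mice. The ZT1 groups did not overlap but lay close together, and the ZT13 groups overlapped. The log2 difference was 0.18 (95% interval 0.02 to 0.34, adjusted p 0.11, exact permutation p 0.036) at ZT1 and 0.04 (-0.09 to 0.17, adjusted p 0.66) at ZT13, where median-of-ratios scaling gave -0.016 and quantile normalization -0.018. Il1rap shares 552 exon bases with the antisense gene Gm20319, and its read counts were fractional in 15 of the 16 samples.

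Il33 encodes a nuclear alarmin, known in brain from astrocytes and oligodendrocytes. At ZT1, Il33 was at 15.5, 12.9 and 14.4 CPM in PBS mice and at 11.9, 7.61, 9.27, 13.7 and 9.83 CPM in LPS mice. At ZT13, Il33 was at 18, 15.3 and 17.8 CPM in PBS mice and at 14.6, 14.6, 14.3, 14.6 and 12.9 CPM in LPS mice. ZT1 LPS mouse 4 lay above the lowest PBS mouse, whereas all ZT13 LPS mice were below all ZT13 PBS mice, by a small margin. Il33 fell by 0.25 on the log2 scale at ZT13 (SE 0.08, adjusted p 0.022, exact permutation p 0.018), from 17 ± 1.52 to 14.2 ± 0.755 CPM (SD, n = 3 and 5). At ZT1 the means were 14.3 ± 1.28 and 10.5 ± 2.36 CPM (SD, n = 3 and 5), with a log2 difference of -0.45 (SE 0.15, adjusted p 0.071, exact permutation p 0.054). Both results lie near the threshold. At ZT13 the call of Il33 was lost without PBS mouse 1 (adjusted p 0.1) or PBS mouse 3 (0.096), without the filter (0.06), in a single fit of all 16 samples (0.17) and with the replicate block (0.087), in a range of 0.0015 to 0.17. At ZT1 Il33 was called without LPS mouse 4 (-0.55, adjusted p 0.023) and under 5 alternatives, in a range of 0.012 to 0.26.

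Il1rl1, the gene of the IL-33 receptor ST2, was at 0 to 7 reads. At ZT1, Il1rl1 was at 0.0986, 0.0494 and 0.295 CPM in PBS mice and at 0, 0.224, 0.0343, 0.07 and 0.0453 CPM in LPS mice. At ZT13, Il1rl1 was at 0.114, 0.231 and 0.134 CPM in PBS mice and at 0.133, 0.043, 0.21, 0.114 and 0.0896 CPM in LPS mice. The groups overlapped throughout, and no difference was detectable at this depth (exact permutation p 0.39 at ZT1 and 0.34 at ZT13).

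Il18 encodes a cytokine that caspase-1 activates, and Il18bp a secreted protein that neutralises it. At ZT1, Il18 was at 5.77, 4.79 and 4.59 CPM in PBS mice and at 4.52, 3.36, 4.77, 6.09 and 5.21 CPM in LPS mice. At ZT13, Il18 was at 4.93, 4.67 and 5.2 CPM in PBS mice and at 4.3, 4.21, 5.87, 4.55 and 4.75 CPM in LPS mice. LPS and PBS mice overlapped, and the log2 difference of Il18 was -0.08 (95% interval -0.44 to 0.27, adjusted p 0.78) at ZT1 and -0.06 (-0.31 to 0.19, adjusted p 0.75) at ZT13. Without ZT1 PBS mouse 1 or ZT1 LPS mouse 2 the ZT1 difference of Il18 was 0.007 or 0.024.

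At ZT1, Il18bp was at 10.5, 11.5 and 12.8 CPM in PBS mice and at 13.8, 12, 13.2, 10.7 and 12 CPM in LPS mice. At ZT13, Il18bp was at 12.5, 11.3 and 12.7 CPM in PBS mice and at 12.7, 12.4, 13.7, 15.4 and 12.5 CPM in LPS mice. These groups overlapped too, with log2 differences of 0.09 (95% interval -0.12 to 0.30, adjusted p 0.58) at ZT1 and 0.13 (-0.06 to 0.31, adjusted p 0.3) at ZT13. Quantile normalization turned them to -0.014 and -0.022, and Il18bp shares 80 exon bases with Numa1 on the other strand.

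**Figure D2:**
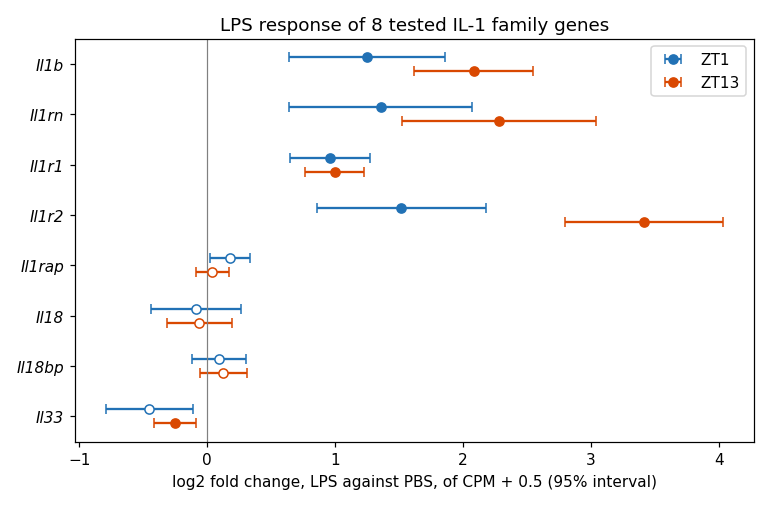
Fitted log2 change after LPS for the tested members at ZT1 and ZT13 (horizontal axis, on log2(CPM + 0.5)), with points the estimates (filled where called, open where not) and bars the 95% intervals. Il1r2 reads 1.52 at ZT1 and 3.41 at ZT13, Il1r1 0.96 and 1.00, and Il33 -0.45 and -0.25.

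Mice given LPS at ZT13 were then compared with mice given LPS at ZT1, to ask whether the inflamed cortex differed with time of day. By limma 0 of 8 members were called, beside 0.0212% of all tested genes (4 genes, with 1998 at an unadjusted p under 0.05). Il1r2 had a mean 4.17 times higher at ZT13, with no overlap between the 5 mice of each group and an exact permutation p of 0.0079, the smallest this design gives. Its log2 difference was 1.78 (95% interval 1.09 to 2.46), with an unadjusted p of 8e-05 and an adjusted p of 0.08, so it missed the threshold across all genes. Il1r2 was called without ZT1 LPS mouse 1 (1.94, adjusted p 0.016), in a single fit of all samples (0.013) and with sample quality weights (0.021), in a range of 0.013 to 0.36. Il33 had a log2 difference of 0.45 (0.18 to 0.71, adjusted p 0.19, exact permutation p 0.016), and Il1rn one of 0.97 (SE 0.37, adjusted p 0.35, exact permutation p 0.056) with overlap. Il1b differed by 0.45 (adjusted p 0.57), Il1r1 by 0.14 (adjusted p 0.71) and Il1rap by 0.00 (adjusted p 0.99), where median-of-ratios (-0.011) and quantile scaling (-0.013) and quality weights (-0.014) gave negative values. Il18 differed by -0.00 (95% interval -0.30 to 0.29) and Il18bp by 0.11 (-0.07 to 0.28), and the untested Il1a and Il1rl1 overlapped, with exact permutation p of 0.17 and 0.4.

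In the mice given PBS, the same comparison gives the baseline over the day. By limma 0 of 8 members were called, beside 0.52% of all tested genes (98 genes, with 2543 at an unadjusted p under 0.05). Il33 had a log2 difference of 0.25 (adjusted p 0.29) and Il1rap one of 0.14 (adjusted p 0.31), and the 3 ZT13 PBS mice were above the 3 ZT1 PBS mice for Il1rap. An exact permutation of 3 against 3 cannot give a p below 0.1. Il1b differed by -0.39 (adjusted p 0.43), Il1r2 by -0.12 (adjusted p 0.81) and Il1r1 by 0.10 (adjusted p 0.83), and Il1rn is listed at or near 0 in both groups. Il18 differed by -0.03 (95% interval -0.30 to 0.25) and Il18bp by 0.07 (-0.14 to 0.28), and Il1a and Il1rl1 overlapped between the times.

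Whether the LPS response itself differed between times was tested as an interaction over all 16 mice, the ZT13 change minus the ZT1 change. By limma 0 of 8 members were called, beside 0.159% of all tested genes (30 genes, with 1745 at an unadjusted p under 0.05). For Il1r2 the interaction was 1.90 (95% interval 0.93 to 2.86, unadjusted p 0.00061, adjusted p 0.14). Without ZT1 LPS mouse 1 it was 2.06 with adjusted p 0.044, and Il1r2 was also called with quality weights (0.032) and with the replicate block (0.031), in a range of 0.031 to 0.34. Il1b had 0.83 (0.06 to 1.61, adjusted p 0.5), Il1rn 0.93 (-0.19 to 2.04, adjusted p 0.64), Il33 0.20 (-0.18 to 0.58, adjusted p 0.8) and Il1r1 0.04 (-0.34 to 0.41, adjusted p 0.97). Il1rap had -0.14 (-0.34 to 0.06), Il18 0.02 (-0.40 to 0.45) and Il18bp 0.04 (-0.23 to 0.31), and quantile normalization turned the values of Il1r1, Il18 and Il18bp negative (-0.051, -0.049 and -0.008). The intervals of Il1b and Il1rn span differences from near 0 to several-fold, so these mice do not settle their size.

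Other genes of the family were read from a list of 15 names, of which 11 were in the table and 5 tested. At ZT1, 2 of the 5 rose and 0 fell (median log2 change 0.48), and at ZT13, 3 rose and 0 fell (median 0.75), against medians of 0.04 and 0.05 for all tested genes. Of all tested genes, 11.1% rose at ZT1 and 19.2% at ZT13. Il18rap encodes the accessory chain of the IL-18 receptor. At ZT1, Il18rap was at 0, 0 and 0.0421 CPM in PBS mice and at 2.89, 1.03, 0.996, 2.42 and 0.68 CPM in LPS mice. At ZT13, Il18rap was at 0.038, 0 and 0.134 CPM in PBS mice and at 2.88, 2.75, 3.69, 3.26 and 2.1 CPM in LPS mice. Its groups did not overlap at either time, with adjusted p 0.0024 at ZT1, where the ratio of pooled CPM was 103 (exact 95% counting interval 18.3 to 4090), and 1.1e-07 at ZT13, where the fitted change was 2.61 (SE 0.18), or 4.34 with a pseudocount of 0.1. Sigirr encodes a receptor that restrains IL-1 family signalling. At ZT1, Sigirr was at 0.74, 0.593 and 0.758 CPM in PBS mice and at 1.49, 1.25, 1.55, 1.33 and 1.27 CPM in LPS mice. At ZT13, Sigirr was at 0.266, 0.648 and 0.493 CPM in PBS mice and at 2.13, 2.41, 2.43, 2.39 and 3.04 CPM in LPS mice. All ZT13 LPS mice were above all ZT1 LPS mice for Sigirr, and all LPS mice above all PBS mice. It rose by 0.65 (SE 0.15, adjusted p 0.011) at ZT1 and 1.63 (SE 0.17, adjusted p 6e-06) at ZT13, with an interaction of 0.98 (adjusted p 0.078). The ZT1 call of Sigirr was lost without PBS mouse 2 (adjusted p 0.054), with quantile normalization (0.051) and with the replicate block (0.057), in a range of 0.0019 to 0.057. Il1rl2, the IL-36 receptor, rose by 0.75 (SE 0.16, adjusted p 0.003) at ZT13, with a difference of 0.48 (adjusted p 0.17) at ZT1. Among PBS mice Il1rl2 reached 1 CPM in ZT1 mouse 2 alone (1.33 CPM), so it passed the filter through LPS mice. Il1f6, Il1f8 and Il1f10 had at most 3 reads in any sample. Il18r1, Il1f5 and Il1f9 had reads but were not tested. From PBS to LPS at ZT13, mean Il18r1 was 0.0584 and 0.376 CPM without overlap (exact permutation p 0.018), Il1f9 0.0304 and 0.78, and Il1f5 0.193 and 0.0846. At ZT1 Il18r1 was at 0.141 and 0.184 CPM with overlap, Il1f9 at 0.0634 and 0.245, and Il1f5 at 0.0164 and 0.142. Il18rap and Sigirr were under 1 CPM in all PBS mice, so they were tested because LPS mice were higher.

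Signalling genes downstream of the receptors were called higher in 6 of 19 at ZT1 and 7 of 19 at ZT13, with 0 lower. Of all tested genes, 11.1% were called higher and 5.15% lower at ZT1, and 19.2% and 9.4% at ZT13. The median log2 change of the list was 0.11 at both times, against 0.04 and 0.05 for all tested genes. Irak3, which encodes a brake on the IRAK kinases, had the largest change, from 0.673 to 2.99 CPM at ZT1 (log2 1.51, adjusted p 0.0021) and from 0.647 to 6.6 CPM at ZT13 (2.63, adjusted p 2.2e-07). Myd88, the adaptor of the receptors, rose by 0.72 (adjusted p 0.0012) at ZT1 and 1.21 (adjusted p 2.6e-06) at ZT13. Irak4, the first kinase of the pathway, rose by 0.85 (adjusted p 0.0036) and 1.09 (adjusted p 6.3e-06). Irak3 was under 1 CPM in all PBS mice and so passed the filter through LPS mice alone. The other risers were Nfkb1 (0.39), Irak1 (0.26) and Peli1 (0.21) at ZT1, and Nfkb1 (0.52), Rela (0.30), Irak1 (0.25) and Tab2 (0.17) at ZT13, Tab2 being the smallest of the 7.
Single mice decided several of the small ZT1 calls. That of Irak1 was lost without PBS mouse 1, 2 or 3 (adjusted p 0.11, 0.13 and 0.1) or LPS mouse 3 or 4 (0.062 and 0.074), in a range of 0.0059 to 0.15 over alternatives. That of Peli1 was lost without PBS mouse 2 or 3 (0.086 and 0.069), in a range of 0.0081 to 0.1, and that of Nfkb1 without the filter alone (0.077, in a range of 0.00072 to 0.077).

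Genes for maturation and release of IL-1 beta and IL-18, the inflammasome sensors, caspases and the pore protein, were called higher in 5 of 8 at ZT1 and 7 of 8 at ZT13, with 0 lower. Of all tested genes, 11.1% were called higher and 5.15% lower at ZT1, and 19.2% and 9.4% at ZT13. The median log2 change of the list was 0.83 and 1.17, against 0.04 and 0.05 for all tested genes. Of the 8, Casp1, Casp4, Nlrp3 and Nlrp1b were under 1 CPM in all PBS mice, so these counts and medians follow in part from the filter. Nlrp3, the sensor, rose by 1.34 (adjusted p 0.0006) at ZT1 and 1.46 (adjusted p 0.00035) at ZT13. Gsdmd, the pore through which IL-1 beta leaves the cell, rose by 1.14 (adjusted p 0.00053) and 1.70 (adjusted p 2e-06), and Pycard, the adaptor, by 0.83 (adjusted p 0.0025) and 1.22 (adjusted p 8.1e-07). Casp4 rose by 1.09 at ZT1, or 0.675 with quantile normalization and 1.88 with a pseudocount of 0.1, and by 1.74 at ZT13, or 3.23 with a pseudocount of 0.1. Nlrp1b rose by 1.13 at ZT13, and Casp1, the protease that cleaves both cytokines, by 0.86 (adjusted p 0.0046) at ZT13 with a difference of 0.67 (adjusted p 0.11) at ZT1. Aim2 rose by 0.82 at ZT1 and 0.63 at ZT13. Its ZT1 call was lost without PBS mouse 1, 2 or 3 (adjusted p 0.06, 0.14 and 0.12) or LPS mouse 1 or 4 (0.069 and 0.078), in a range of 0.012 to 0.16 over alternatives.

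Targets known to respond to IL-1, which also respond to LPS and other cytokines, rose in 10 of 10 tested at each time, from a list of 13. That list was written with earlier results of these data known, so its count and medians are no independent result. Of all tested genes, 11.1% rose at ZT1 and 19.2% at ZT13. At ZT1 their median log2 change was 1.57 and at ZT13 1.70, against 0.04 and 0.05 for all tested genes. The ZT1 median was also 1.57 with the 1 gene unseen in PBS mice at its lower bound, and at ZT13 0 genes were at a bound. Lcn2, Saa3, Cxcl1 and Sele were at most 0.342 CPM in PBS mice and passed the filter through LPS mice alone, so the count and the median follow in part from the filter. Lcn2, the gene of lipocalin-2, went from a mean of 0.129 to 194 CPM at ZT1 and from 0.131 to 349 CPM at ZT13. Saa3, an acute phase gene, went from 0.108 to 124 CPM at ZT1 and from 0.295 to 291 CPM at ZT13. Icam1 and Vcam1, adhesion molecules of the vessel wall, rose by 2.95 and 1.51 at ZT1 and by 3.65 and 1.55 at ZT13. Cxcl1, a neutrophil attractant, was at least 13.2-fold higher at ZT1 than a floor of 3 reads in each PBS library, and at ZT13 its ratio of pooled CPM was 201 (exact 95% counting interval 35.9 to 7970). Sele had ratios of 28.6 (9.62 to 140) and 54.3 (14.8 to 452), and its ZT1 call (adjusted p 0.011) was lost without the filter (0.098) and with quantile normalization (0.1), in a range of 0.0024 to 0.1. Il6 had at most 3 reads in any sample. By limma 0 genes of these 4 lists were called in the comparisons between times or in the interaction.

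Most markers of blood leukocytes were higher in LPS mice. The background for these and the following marker lists was 11.1% of all tested genes called higher and 5.15% lower at ZT1. At ZT13 it was 19.2% and 9.4%. Of 8 neutrophil markers 6 were tested, and 5 rose at ZT1 and 6 at ZT13, with S100a9 the most abundant in LPS mice and Ngp in PBS mice. The untested were Ly6g and Camp, and Camp was at a mean of 0.0329 CPM in PBS and 0.124 in LPS mice at ZT1, and at 0.0579 and 0.0519 CPM at ZT13. The 6 tested were at most 0.547 CPM in PBS mice and were tested because LPS mice were higher, so the counts and medians depend on that filter. Without the filter the neutrophil count at ZT1 was 3. The sum of all 8 at ZT1 was 0.838, 0.444 and 0.758 CPM in PBS mice and 52.8, 10.9, 21.8, 46.4 and 10.8 CPM in LPS mice. The sum of all 8 at ZT13 was 0.342, 0.416 and 0.762 CPM in PBS mice and 68.9, 56.5, 98.5, 99.1 and 37.2 CPM in LPS mice. ZT1 LPS mice 1 and 4 were the highest of their group for this sum and also for Il1r2 and Il1b, but Il1rn was highest in mice 1 and 3 (1.63 and 1.34 CPM) and at 0.595 CPM in mouse 4. ZT13 LPS mice 3 and 4 were the highest for this sum and also for Il1r2, Il1rn and Il1b. ZT13 LPS mouse 5 was the lowest of its group for all of these. Some other sums shared these orders and some did not. The same ZT1 mice were highest for the endothelial, astrocyte, perivascular macrophage, target and maturation sums, and the same ZT13 mice for the target and maturation sums, where mouse 5 was again lowest. At ZT13 the endothelial sum was highest in LPS mice 2 and 5 (376 and 354 CPM) and the astrocyte sum in mice 3 and 2 (1870 and 1860 CPM). The ZT13 perivascular macrophage sum was highest in LPS mice 3 and 1 (16 and 13.1 CPM). The microglial sum was lowest in ZT13 LPS mice 3 and 4 (254 and 257 CPM). Ly6g and Cxcr2, both on the neutrophil list, had no reads in PBS mice. In LPS mice Ly6g had a mean of 0.0551 CPM at ZT1 and 0.0648 at ZT13, while Cxcr2 had a mean of 3.59 CPM at ZT1 and 10.1 at ZT13. Ly6g ranged from 0 to 0.14 CPM in ZT1 LPS mice and from 0 to 0.152 CPM in ZT13 LPS mice, near the floor of 3 reads. Neutrophils are known to carry Il1r2, Il1b and Il1rn, and what part their RNA had in these results was not tested. The paper's methods describe perfusion of the mice with cold PBS and heparin before brain tissue was frozen for RNA. The median log2 change of the tested neutrophil markers was 2.49 at ZT1 and 4.18 at ZT13, or 2.59 and 5.10 with genes unseen in PBS mice at their lower bound.

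Of 4 monocyte markers all 4 rose at both times, with Chil3 the most abundant in LPS mice but not in PBS mice. These 4 were at most 0.296 CPM in PBS mice, so they too were tested because LPS mice were higher. Summed at ZT1 they were at 0.584, 0.642 and 0.425 CPM in PBS mice and at 13.5, 3.45, 4.83, 9.09 and 3.35 CPM in LPS mice. Summed at ZT13 they were at 0.154, 0.381 and 0.238 CPM in PBS mice and at 18.3, 13.6, 29.9, 26.6 and 10.9 CPM in LPS mice. The order of the mice resembled that of the neutrophil sum, and the part of monocytes in the results for Il1b, Il1rn and Il1r2 was not tested. Without ZT1 PBS mouse 3 just 1 of the 4 monocyte markers was called at ZT1, and without ZT1 PBS mouse 1 it was 2.

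**Figure D3:**
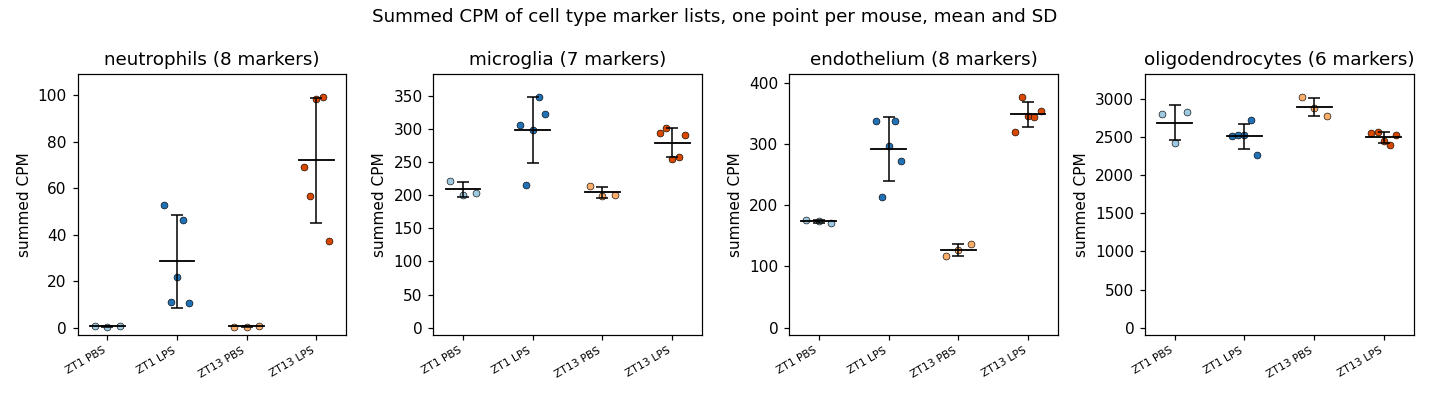
Summed CPM of marker lists (vertical axes, linear) in the 4 groups, with each point 1 mouse, the line the mean and the bar 1 SD. The neutrophil sum lies between 0.342 and 0.838 CPM in PBS mice, between 10.8 and 52.8 in ZT1 LPS mice and between 37.2 and 99.1 in ZT13 LPS mice.

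Resident cells were read beside the receptors and Il33. Of 8 endothelial markers, 5 rose and 1 fell (Flt1) at ZT1, and 8 rose at ZT13, with Vwf the most abundant in LPS mice and Flt1 in PBS mice. Their sum at ZT1 was 176, 174 and 170 CPM in PBS mice and 337, 214, 296, 338 and 272 CPM in LPS mice. Their sum at ZT13 was 117, 127 and 136 CPM in PBS mice and 320, 376, 345, 344 and 354 CPM in LPS mice. LPS mice were above PBS mice at both times, as for Il1r1, and the part of endothelium in the rise of Il1r1 was not tested. For endothelial markers 5 of 8 were called in the interaction, beside 0.159% of all tested genes. This count went from 0 to 5 as single mice were left out, with 0 without ZT1 PBS mouse 1 or ZT13 PBS mouse 2. It was 0 without the filter or the intensity trend. In PBS mice 3 of 8 were lower at ZT13, beside 0.52% of all tested genes called in either direction. Of the 8, 1 was called without ZT1 PBS mouse 1 or 2 or ZT13 PBS mouse 2.

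Of 6 markers of oligodendrocytes, a known source of Il33, 2 were called lower and 1 higher at ZT1, and 4 lower and 1 higher at ZT13, with Mbp the most abundant. Their sum at ZT1 was 2800, 2420 and 2830 CPM in PBS mice and 2510, 2530, 2520, 2720 and 2260 CPM in LPS mice. Their sum at ZT13 was 3020, 2880 and 2780 CPM in PBS mice and 2550, 2560, 2450, 2390 and 2520 CPM in LPS mice. The ZT13 groups did not overlap and the ZT1 groups did, and their part in the values of Il33 was not tested. Astrocyte markers, the other known source of Il33, rose in 4 of 5 at both times, with Gfap the most abundant in LPS mice and Slc1a3 in PBS mice, and summed to 661, 648 and 658 CPM in ZT1 PBS mice and 1700, 1170, 1300, 1510 and 1300 in ZT1 LPS mice. At ZT13 the astrocyte sum was 678, 687 and 672 CPM in PBS mice and 1740, 1860, 1870, 1820 and 1500 CPM in LPS mice. Without the filter the count called at ZT1 was 1 for oligodendrocyte and 2 for astrocyte markers. In bulk cortex, fewer cells of a type and less RNA per cell cannot be told apart.

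Microglia, a known source of Il1a, Il1b and Il18, had 5 of 7 markers higher and 2 lower at both times, with Csf1r the most abundant. P2ry12 and Siglech fell, by 1.07 and 1.75 at ZT1 on the log2 scale. Their sum at ZT1 was 222, 201 and 204 CPM in PBS mice and 306, 216, 299, 348 and 322 CPM in LPS mice, and at ZT13 it was 214, 199 and 200 CPM in PBS mice and 294, 301, 254, 257 and 291 CPM in LPS mice. ZT1 LPS mouse 2 was lowest of its group for this sum, for Il18, Il1a, Il1b and Il33, and also for the endothelial, astrocyte, perivascular macrophage and maturation sums. Without ZT1 PBS mouse 3 the microglial count at ZT1 was 4, and without the filter it was 3. The part of microglia in the results for Il1a and Il1b was not tested.

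Of the remaining lists, perivascular macrophage markers rose in 2 of 4 at ZT1 and 1 of 4 at ZT13. Mrc1 was the most abundant apart from ZT13 LPS mice, where Cd163 was at 5.09 and Mrc1 at 4.99 CPM, and Pf4 was not tested. Lyve1 and Cbr2 were under 1 CPM in all PBS mice. Fibroblast markers rose in 1 and 2 of 4, with Col1a1 the most abundant over all samples but below Col1a2 in ZT13 PBS mice. The macrophage count at ZT1 was 1 without any of ZT1 PBS mice 1, 2 and 3 and ZT1 LPS mice 1, 3 and 4. Neuronal markers were lower in 3 of 5 at ZT13, where 9.4% of all tested genes were called lower and 19.2% higher, against 5.15% and 11.1% at ZT1. With quantile normalization 2540 of 5646 calls at ZT13 were higher, so more were lower than higher. By limma 0 of 5 neuronal markers at ZT1 were called, and at both times 0 of 4 choroid plexus, 0 of 5 erythrocyte and 0 of 1 tested T cell markers. Among all tested genes 3061 were called at ZT1 and 5401 at ZT13, with 5716 and 7222 at an unadjusted p under 0.05. Mast cell markers, another cell known for Il1rl1, had 0 tested, and Cma1, Mcpt4, Cd3d and Cd3g had at most 3 reads in any sample.

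The genes whose pattern over the 16 samples was most like that of each tested member were ranked by Pearson r of log2(CPM + 0.5), a description without a test in which LPS and PBS mice form separate clusters. For Il1b these were Hcls1 (r 0.985), Trim30b (0.980) and Rassf4 (0.978), and for Il1rn they were Ifitm6 (0.970), Msrb1 (0.965) and Amigo2 (0.961). For Il1r1 they were Mgst1 (0.987), Srgn (0.981) and Flnc (0.981). For Il1r2 they were Acod1 (0.989), Mmp8 (0.986) and Clec4e (0.986), of which Mmp8 was also on the neutrophil list. Il33 was nearest to Tmem88b (0.896), Daam2 (0.867) and Pla2g7 (0.860). Il1rap was nearest to Opn4 (0.908), Scnn1a (0.854) and Pggt1b (0.844), Il18bp to Plaat3 (0.861), Rab7b (0.853) and Cpsf2 (0.842), and Il18 to Coa3 (0.788), Gm2492 (0.780) and Gm48700 (0.777).

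Several members share a position in the genome (GRCm38). The receptor genes Il1r2 (chr1:40074079-40125231), Il1r1 (chr1:40225080-40317257) and Il1rl1 (chr1:40429570-40465415) lie in that order on the plus strand, with Il1rl2 between Il1r1 and Il1rl1, and in ZT13 LPS mice the 3 stood at 7.2, 7.05 and, for Il1rl1, at most 0.21 CPM. The ligand genes Il1a (chr2:129299610-129309972) and Il1b (chr2:129364570-129371139) are neighbouring protein-coding genes on the minus strand, and Il1rn (chr2:24336853-24351494) lies on the same chromosome. The others are Il1rap (chr16:26581704-26730117), Il18 (chr9:50554827-50581840), Il18bp (chr7:102014885-102018690) and Il33 (chr19:29925114-29960718).

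Promoters from RefSeq (GRCm38.p6), 250 bases before to 50 after a transcript start, gave 15 windows for the 10 members. They were searched on both strands for 8 motifs, and 6 windows held none of them. Printed here are windows of Il1r2, Il1r1 and Il1rn, members that rose together, with capitals for 1 motif in each. That of Il1r2 (chr1:40085843-40086142, plus strand) lies inside the annotated gene and holds 2 E-boxes (CACGTG), and 7.15% of all 32851 promoters hold at least 1. It also has a STAT match (TTCNNNGAA, in 8.3% of promoters). That of Il1r1 (chr1:40266336-40266635, plus strand), also inside the gene, holds an NF-kB match (8.46% of promoters), and that of Il1rn (chr2:24336610-24336909, plus strand) an AP-1 match (TGANTCA, 7.81%).
Il1r2: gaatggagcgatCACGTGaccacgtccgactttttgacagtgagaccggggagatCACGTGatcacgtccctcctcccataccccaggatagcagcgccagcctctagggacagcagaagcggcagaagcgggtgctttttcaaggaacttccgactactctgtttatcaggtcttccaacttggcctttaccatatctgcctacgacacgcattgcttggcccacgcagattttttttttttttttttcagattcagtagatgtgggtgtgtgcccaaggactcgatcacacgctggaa
Il1r1: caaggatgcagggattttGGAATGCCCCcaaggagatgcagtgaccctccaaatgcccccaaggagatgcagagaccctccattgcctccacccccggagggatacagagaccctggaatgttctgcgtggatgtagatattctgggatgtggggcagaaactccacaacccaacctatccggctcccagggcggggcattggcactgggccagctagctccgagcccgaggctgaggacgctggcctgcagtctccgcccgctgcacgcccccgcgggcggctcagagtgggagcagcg
Il1rn: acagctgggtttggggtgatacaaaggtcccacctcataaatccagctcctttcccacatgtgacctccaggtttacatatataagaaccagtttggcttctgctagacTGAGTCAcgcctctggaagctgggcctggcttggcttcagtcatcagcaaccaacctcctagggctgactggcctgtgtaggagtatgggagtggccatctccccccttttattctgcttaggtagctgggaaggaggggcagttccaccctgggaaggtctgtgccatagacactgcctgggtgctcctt
Other matches were AP-1 in Il1a, C/EBP (TTNNGCAA, 10.8% of promoters) in Il1r1, Il1rl1, Il18bp and Il33, a D-box-like match (TTANNTAA, 6%) in Il18 and a glucocorticoid element match (ACANNNTGT, 6.85%) in Il1rl1. The CRE (TGACGTCA, 1.79%) was in none, and the windows of Il1b and Il1rap held none of the 8. A match describes letters in a window, and which start each gene used in these mice was not measured.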

How the data were processed

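Bulk RNA-seq of 16 cortex samples was read from a gene table whose values are CPM made by the authors, with DRAGEN 4.0.3-8 and GRCm38 named per the labels and the counting mode not stated. After 287 repeated lines were removed, every sample summed to 1000000 CPM. Low values are steps of 1 read, which gave depths of 20251840 to 29112758 reads on genes (median 22459623). Between 80.7% and 82.4% of values up to 20 reads were whole within 0.01 read, so no test on counts was run. A floor of 3 reads is 0.103 to 0.148 CPM. The intervals of pooled CPM ratios and the floors cover counting error alone, whereas the intervals of fitted changes come from the spread between mice.

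Titles set the groups. Genes with 1 CPM or more in 3 or more samples were fitted with limma 3.58.1 (R 4.3.3, intensity trend) on log2(CPM + 0.5), each pair of groups separately and the interaction on all 16, adjusted by Benjamini-Hochberg over 18859 genes and called at adjusted p under 0.05. Single values used two-sided exact permutation tests of mean CPM. Levels per length used exon unions from GENCODE M21. Tables were made in Python 3.11.15 with pandas 2.3.3 and numpy 2.4.6, and the code was tested on simulated data.

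Members and lists were chosen with earlier results of these data known. Named genes are all 10 members, up to 6 called genes per list and comparison by absolute log2 change, and the 3 genes nearest in pattern to each tested member; Tab2 and Aim2 at ZT13, the ratios between members, and the marker genes named were added after their values were seen. Alternatives were pseudocounts of 0.1 and 1, no filter, a filter at 5 CPM, median-of-ratios and quantile scaling, weights for sample quality, 1 fit over all 16 samples, a block on replicate number, a prior without trend, groups by the labels' treatment entry, and omission of each mouse in turn.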

Additional observations from a re-analysis of the deposited data

Results flagged for a closer look

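In 20 combinations of a member and an LPS group, 2 had a mouse far from the other 4, and chance gives about 1 in 20. Il1rap in ZT1 LPS mouse 4 was at 42.2 CPM, the highest of its group, with a gap of 0.771 of the group's range to the nearest mouse. Il33 in ZT13 LPS mouse 5 was at 12.9 CPM, the lowest of its group, with a gap of 0.808 of the range.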

How the results depend on the processing

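With all mice, Il1r1 was called higher after LPS at both times, and Il1b, Il1rn and Il1r2 at ZT13, under every alternative that held them apart from the treatment field. The 4 members called at ZT1 became 1 without the filter, 2 with the filter at 5 CPM, which tests fewer members, and 0 with treatment taken from the treatment field, which mixes treated and control mice. Leaving out single mice gave 2 to 5, with 2 without ZT1 PBS mouse 2. The 5 members called at ZT13 became 3 with the filter at 5 CPM and 0 with the treatment field, and 4 to 5 as single mice were left out. Between LPS groups the count of 0 became 1 in a single fit of all samples and 1 with quality weights, and 0 to 1 as mice were left out. In the interaction 0 became 1 with quality weights and 1 with the replicate block, and 0 to 1 as mice were left out. In each of these, the member called was Il1r2.

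Small differences changed sign. With quantile normalization Il18bp was at -0.014 at ZT1 and -0.022 at ZT13, Il1rap at -0.018 at ZT13 and -0.013 between LPS groups, and the interaction was -0.051 for Il1r1, -0.049 for Il18 and -0.008 for Il18bp. Median-of-ratios scaling gave Il1rap -0.016 at ZT13 and -0.011 between LPS groups, and quality weights gave Il1rap -0.014 between LPS groups and Il18 -0.063 in the interaction. As single mice were left out, Il18 went from -0.169 to 0.024 at ZT1, from -0.111 to 0.082 between LPS groups and from -0.085 to 0.066 between PBS groups. Il1rap went from -0.029 to 0.053 between LPS groups and Il1r1 from -0.012 to 0.245 between PBS groups. Interactions went from -0.108 to 0.149 for Il1r1, from -0.086 to 0.107 for Il18 and from -0.034 to 0.103 for Il18bp. The cause was not tested.

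Among all tested genes, 3061 were called at ZT1 but 1605 without the filter, where more genes are tested, and 1767 to 3758 as mice were left out, with 1767, 1870 and 1770 without ZT1 PBS mouse 1, 2 and 3. Between LPS groups 4 became 1 without the filter, 122 in a single fit, 225 with quality weights and 0 without the trend, and 0 to 345 as mice were left out. Between PBS groups 98 became 65 without the filter, 158 at 5 CPM, 199 with quantile normalization, 43 in a single fit, 3 without the trend and 57 with the replicate block, and 12 to 87 as mice were left out. In the interaction 30 became 12 without the filter, 124 with quality weights and 11 without the trend, and 7 to 104 as mice were left out. The treatment field gave 0 for all but the PBS comparison. At ZT1 68.2% of calls were higher after LPS, 54.4% with median-of-ratios and 51.1% with quantile scaling, and at ZT13 67.2%, 50.1% and 45%. Between PBS groups 58.2% were higher at ZT13, or 47.2% with quantile scaling, and 39.1% to 83.3% as mice were left out. In the interaction 76.7% were positive, or 65% with quantile scaling, and 57.1% to 86.5% as mice were left out. Between LPS groups the shares of 50%, or 33.3% with either scaling, rest on 4 and 3 calls, and 93.4% of the 122 calls of the single fit, 90.2% of the 225 with quality weights and 91.9% of the 345 without ZT1 LPS mouse 1 were higher at ZT13. The median of all genes at ZT13 moved from 0.050 to -0.060 with quantile normalization. The cause was not tested.

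Same-numbered samples of different groups had residual r from -0.20 to 0.33, with 3 of 20 pairs over 0.1. Samples with different numbers were not compared, so this does not settle whether replicate numbers mark a pairing. With the replicate block 2637 genes were called at ZT1 and 4680 at ZT13.

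Depth limited Il1a, Il1rl1 and, in PBS mice, Il1b, Il1rn and Il1r2, which had at most 7 reads there, so ratios against PBS are imprecise. Groups of 3 PBS mice cannot give an exact permutation p under 0.05 against each other.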
